A study of Homo sapiens with 23 samples.

Results

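Sustained loss of TRPS1 was followed at the level of nascent transcription by contrasting the 8 PRO-seq libraries taken 2 and 4 h after the degron ligands (late hours) with the 8 taken after 0.5 and 1 h (early hours), 16 of the 23 libraries of the time course. All of them came from T47D dTAG-TRPS1 Clone 28, 1 clone of an ER-positive luminal breast cancer line in which a degron tag was inserted into TRPS1 and, per the study's methods, some of the genomic copies are knocked out so that the expressed protein is tagged. Cells of the early and the late hours alike received 50 nM dTAG-13 plus 50 nM dTAG-V-1 in DMSO. Each hour has replicates 1 to 4. The 4 DMSO libraries and the 3 libraries of 24 h (replicates 2 to 4) entered no early-to-late test and were used only to place the called genes. Per the study's methods, the 4 replicates were treated and collected at different times of 1 day, and the dishes of 1 replicate together. The replicate numbers in the sample titles were taken to mark these harvests. With the number as block, the p-values measure the spread within numbers, among same-day cultures of 1 clone. Differences between the 2 hours of a phase count in that spread. The 8 libraries of a phase are 2 hours of 4 replicates, which the fit treats as 8 observations. Hours since TRPS1 loss and hours of exposure to the ligands cannot be told apart in these cells, since none of the libraries used here came from ligand-treated cells without the tag.

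PRO-seq maps RNA polymerases that are engaged on DNA when the cells are permeabilized, so it reads transcription as it happens rather than the pool of finished mRNA. TRPS1 is an atypical GATA-family zinc-finger protein that represses regulatory elements. Genes that respond within the first hour of its removal are candidates for a primary response, and genes that move only afterwards for a secondary one. One system known for delayed adjustments of this kind is sterol homeostasis, in which SCAP carries the SREBP factors out of the endoplasmic reticulum when membrane sterol is low, INSIG proteins hold SCAP back when it is high, and the released factors induce genes of cholesterol synthesis and uptake. Another is the G1 to S transition, where E2F factors induce the replication machinery.

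Total counts ranged from 5016800 to 17126000 in the early and from 4408500 to 14040000 in the late libraries (difference of means 1354500, exact permutation test within replicate numbers, two-sided, p = 0.364). The share of counts in mitochondrial genes was between 2.18% and 4.24% early and between 1.73% and 6.5% late, with a difference of means of -0.017 percentage points (exact permutation p = 0.968). Summed luminal markers (ESR1, GATA3, FOXA1, TRPS1, keratins and others) lay between 15186 and 18337 CPM in the 16 libraries. TRPS1, the tagged gene, whose values are given below, supplied a large part of that sum. Summed stromal, immune and basal markers reached at most 25.9, 21 and 103 CPM. None of the markers was called by edgeR. At an unadjusted p under 0.05 there were 4 of 10 luminal, 1 of 4 stromal, 1 of 3 immune and 1 of 6 basal markers that passed the count filter, and DESeq2 called 3 luminal markers and 0 of the others. Over all genes, 12.8% of those tested had an unadjusted p under 0.05, and DESeq2 called 598 of 13443. In bulk libraries fewer cells of a type and less transcription per cell cannot be told apart. CPM here is the count scaled to a common library size after TMM adjustment, except that the marker sums were scaled to total counts alone. TRPS1 itself, whose protein and not its gene is the target of the ligands, gave between 8946 and 11191 CPM (median 10395) in the early libraries and between 8976 and 11411 CPM (median 10827) in the late libraries, and its log2 difference of 0.003 ± 0.034 (SE) had an adjusted p of 1.0.

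Of 23441 genes tested, 526 (2.24%) differed between the phases (edgeR quasi-likelihood test, replicate number as block, Benjamini-Hochberg adjusted p under 0.1). Nascent transcription was higher late for 324 genes (1.38%) and lower late for 202 (0.862%). The differences were small, with a median size of 0.17 on the log2 scale, a 1.13-fold difference, and 76 genes exceeded 0.3. In 40 of the 324 higher genes all 8 late libraries lay above all 8 early ones (0.175% of all tested genes did so), and in 13 of the 202 lower genes all late libraries lay below (0.0683% of tested genes). The number of calls rested on the block and on which replicates were present. Without the block 149 genes were called, 101 higher and 48 lower, and with 1 replicate number left out between 55 (without replicate 3) and 386 (without replicate 1). Single libraries also moved it: leaving out 4 h replicate 1 gave 954 calls (443 higher, 511 lower) and leaving out 0.5 h replicate 2 gave 296 (187 higher, 109 lower). Scaling by total counts alone gave 297 higher and 95 lower genes, so the excess of rises was larger on that scale. At least 525 of the 526 genes kept their sign under each of the 16 alternatives tried, which refit the same libraries or a subset of them and so nearly fix the signs of genes chosen as called.

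The hours were also compared in pairs. In a fit with 4 separate hours, 16 genes differed between 1 h and 0.5 h and 3 between 4 h and 2 h, against 64 between 2 h and 1 h, 220 between 2 h and 0.5 h, 223 between 4 h and 1 h and 856 between 4 h and 0.5 h. These pairs reuse the same libraries, and their counts were unsteady: for 2 h against 1 h, 0 genes were called without the block and 446 without replicate 1. As shares of all tested genes, higher and lower calls were 0.0341% and 0.0341% for 1 h against 0.5 h, 0.00427% and 0.00853% for 4 h against 2 h, and 0.0939% and 0.179% for 2 h against 1 h. They were 0.572% and 0.367% for 2 h against 0.5 h, 0.61% and 0.341% for 4 h against 1 h, and 2.44% and 1.22% for 4 h against 0.5 h. For the 324 higher genes the median log2 step was 0.042 from 0.5 to 1 h, 0.13 from 1 to 2 h and 0.038 from 2 to 4 h. The 202 lower genes gave -0.035, -0.16 and -0.022. The late-to-early contrast that chose these genes holds the step from 1 to 2 h at a larger weight than the other steps, so the order of the medians is fixed in part by the choice. All 526 genes had the direction of their call in all 4 late-to-early hour pairs, a property that the call itself favours, and 12 higher and 6 lower genes were called in all 4 pairs.

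Genes of cholesterol synthesis and uptake had the largest share of called members among the gene lists. Of 30 measured members of a 33-gene list, 17 were called higher and 0 lower, against 1.38% and 0.862% of all genes tested, and the list's median log2 difference was 0.21 against -0.0027 over all genes. The called members spread from the early to the late steps of the pathway. Near its head stood HMGCS1, which makes HMG-CoA, with between 65.5 and 78 CPM (median 71) in the early libraries and between 83.6 and 92 CPM (median 89.2) in the late libraries. The 2 sets of libraries did not overlap (log2 difference 0.31 ± 0.036, adjusted p = 0.000295).

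**Figure D1:**
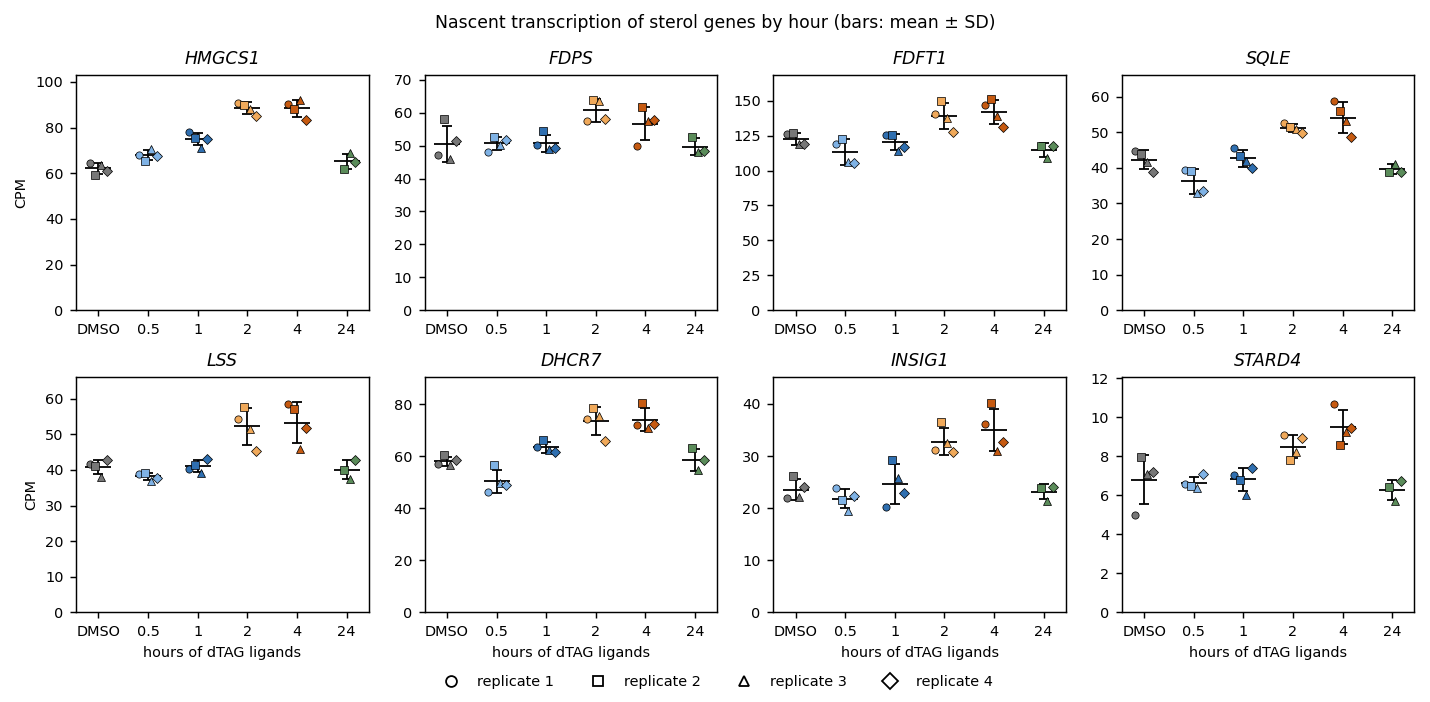
Normalised PRO-seq counts (CPM, vertical axis from 0) of 8 sterol genes by hours of dTAG ligands, with DMSO at the left. Each point is 1 library, marker shapes give replicate numbers, and bars are the mean ± SD of 4 libraries (3 at 24 h); the 2 and 4 h points lie above all 0.5 and 1 h points in each gene except DHCR7 and FDPS, where the sets overlap slightly, and the 24 h points lie near DMSO.

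Mevalonate and isoprenoid steps included 3 called genes. Log2 differences were 0.31 ± 0.059 (SE) for MVK, mevalonate kinase, 0.16 ± 0.043 for IDI1, which isomerizes isopentenyl diphosphate, and 0.22 ± 0.034 for FDPS, farnesyl diphosphate synthase, with adjusted p-values of 0.0172, 0.0841 and 0.00438. FDPS shares its locus with RUSC1-AS1 on the other strand, and whether counting used strand is not stated, so their reads cannot be told apart where they overlap. PMVK and MVD, the steps between MVK and IDI1, were not called, at -0.074 ± 0.043 and 0.15 ± 0.051.

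Squalene and ring formation came next. FDFT1, squalene synthase, gave between 105 and 125 CPM (median 118) in the early libraries and between 128 and 151 CPM (median 140.0) in the late libraries (log2 difference 0.27 ± 0.029, adjusted p = 0.000279). SQLE, the oxygen-dependent epoxidase that is the second control point of the pathway, had between 32.8 and 45.5 CPM (median 39.6) in the early libraries and between 48.7 and 58.9 CPM (median 52) in the late libraries (log2 difference 0.43 ± 0.053, adjusted p = 0.000569). For LSS, which closes the sterol ring to lanosterol, the values were between 37 and 43.2 CPM (median 39.1) in the early libraries and between 45.4 and 58.6 CPM (median 53) in the late libraries (log2 difference 0.41 ± 0.046, adjusted p = 0.000279). None of these 3 enzymes had an early library above a late one. Of the later enzymes, CYP51A1 (0.23 ± 0.038), MSMO1 (0.31 ± 0.056), SC5D (0.12 ± 0.033) and DHCR7 (0.38 ± 0.063), which convert lanosterol to cholesterol, were called. NSDHL, EBP, TM7SF2 and LBR, which act in the same stretch, were not, with log2 differences from -0.024 to 0.15, and HSD17B7 missed the threshold at 0.22 ± 0.065 (adjusted p = 0.13).

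Of the list's members that act on sterol sensing and transport, INSIG1, the retention factor for SCAP and a classical SREBP target, lay between 19.5 and 29.3 CPM (median 22.7) in the early libraries and between 30.9 and 40.1 CPM (median 32.6) in the late libraries. Its sets did not overlap and its log2 difference was 0.54 ± 0.067 (adjusted p = 0.000569). STARD4, a soluble sterol carrier, rose from a median of 6.7 CPM early to 9 CPM late (log2 difference 0.41 ± 0.067, adjusted p = 0.00696). LPIN1, a phosphatidate phosphatase that the list counts although it is not a sterol enzyme or carrier, rose by 0.28 ± 0.05 (adjusted p = 0.0108). SREBF2, which encodes SREBP-2, was itself higher late (log2 difference 0.21 ± 0.039, adjusted p = 0.015), whereas the carrier SCAP (0.047 ± 0.042) and MYLIP, an E3 ligase gene controlled by liver X receptors (-0.012 ± 0.044), were not called. A separate list of sterol efflux and liver X receptor targets had 1 call among 10 measured genes, SREBF1 (higher), with 7 negative values and a median of -0.020.

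The letters TCACNCCAC, a form of the sterol regulatory element, were searched on both strands of 300 bases around each start (250 before, 50 after) in RefSeq promoters. They were found in 1 of 13 called members with a promoter in the set, SREBF2, beside 1.08% of all tested genes with a promoter and 1.15% of all 27305 promoters. The stretch around it is shown because it belongs to the gene of the factor itself (GRCh38.p14, gene strand, 5′ to 3′, match in capitals).
SREBF2, chr22:41832952-41833000 (+): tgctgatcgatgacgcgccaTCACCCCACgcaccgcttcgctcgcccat
The other 4 called members had no promoter in the set, and no match says only that these letters are not in the window.

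Per step, the list's median log2 difference was 0.088 from 0.5 to 1 h, 0.15 from 1 to 2 h and 0.012 from 2 to 4 h, with 1, 8 and 0 members called higher and 0 lower in each. From 0.5 to 1 h the log2 step was 0.33 for DHCR7 and 0.26 for MSMO1, but 0.028 for STARD4. Part of the DHCR7 step lay below DMSO, with means of 58.1 ± 1.73 CPM in DMSO (SD), 50.3 ± 4.42 at 0.5 h and 63.4 ± 2.12 at 1 h. From 1 to 2 h the log2 step was 0.39 for INSIG1, 0.35 for LSS and 0.32 for STARD4. These steps are single-fit contrasts and their differences between genes were not tested. Against DMSO, the list median was 0.012 early and 0.23 late, and -0.035 at 24 h. Called higher than DMSO were 3 members early and 18 late, beside 1.55% and 1.78% of all tested genes, and 0 were called lower. At 24 h 0 of its members were called in either direction. INSIG1 was 23.6 ± 2 CPM in DMSO (SD, n = 4), 21.8 ± 1.82 and 24.6 ± 3.85 after 0.5 and 1 h, 32.8 ± 2.6 and 35 ± 4.04 after 2 and 4 h, and 23.2 ± 1.47 after 24 h (n = 3). In a fit of all libraries, added after the data were seen, 21 members were lower at 24 h than at 2 and 4 h and 0 higher, against 1.85% and 1.67% of all tested genes. That contrast shares the late libraries with the early-to-late one. The number of called members was 15 without the block and between 9 (without replicate 3) and 17 with 1 replicate number left out.

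Fewer fatty acid genes were called. Of 24 measured members, 8 were called higher and 0 lower, beside 1.38% and 0.862% of all genes tested (median 0.055). ACLY, which supplies cytosolic acetyl-CoA, had between 138 and 152 CPM (median 142) in the early libraries and between 150.5 and 172 CPM (median 163) in the late libraries (log2 difference 0.16 ± 0.023, adjusted p = 0.00189), and the sets overlapped slightly. ACACA, acetyl-CoA carboxylase, followed with 0.14 ± 0.026 and ACSS2, acetyl-CoA synthetase, with 0.22 ± 0.053. Values for FASN, the fatty acid synthase, were 0.15 ± 0.072 with an adjusted p of 0.405, so no difference was detectable. SCD, the delta-9 desaturase, rose by 0.32 ± 0.069 (adjusted p = 0.0301), but 4 h replicate 1 stood at 220.2 CPM, far above the other late libraries, and the early maximum of 141 CPM overlapped them. ACSL1, a long-chain acyl-CoA synthetase, did not overlap between phases, with between 30.5 and 38.4 CPM (median 33.1) in the early libraries and between 40.9 and 47.9 CPM (median 43.3) in the late libraries (log2 difference 0.38 ± 0.048, adjusted p = 0.000789). SREBF1, the gene of SREBP-1, which RAI1 overlaps on the other strand, rose by 0.15 ± 0.03, and its log2 value against DMSO was -0.20 early and -0.045 late. PNPLA3, a lipid droplet acyltransferase and SREBP-1 target, and ELOVL5, an elongase, rose by 0.17 ± 0.037 and 0.094 ± 0.025. The count of called members was 5 without the block, and 2 without replicate 3 or without replicate 4.

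Noncoding and neighbouring transcripts at these loci were called too. OLMALINC (ENSG00000235823, a lncRNA on chromosome 10, 100373099 to 100454043 on hg38, starting 8273 bases downstream of SCD on the same strand) had the smallest p of all rises, with between 104 and 119 CPM (median 116) in the early libraries and between 136 and 160.5 CPM (median 147) in the late libraries (log2 difference 0.35 ± 0.031, adjusted p = 4.68e-05). Unlike SCD, it did not overlap between phases. ENSG00000231188, 843 bases from SCD on the other strand, rose by 0.36 ± 0.076, SQLE-DT, 299 bases from SQLE and divergent from it, by 0.37 ± 0.10, and ENSG00000255046, antisense within FDFT1, by 0.38 ± 0.088, with adjusted p-values of 0.0301, 0.0974 and 0.0444. MMAB, a cobalamin enzyme gene that overlaps MVK on the opposite strand, rose by 0.23 ± 0.040 (adjusted p = 0.0103). ENSG00000285772, which overlaps CYP51A1 on the same strand, rose by 0.22 ± 0.038 (adjusted p = 0.0103). Reads of MVK and MMAB, of FDFT1 and its antisense gene, and of CYP51A1 and ENSG00000285772 cannot be told apart where they overlap.

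Among the falling genes, the replication machinery had the most called members of any list. Of 61 measured DNA replication genes, 12 were called lower and 0 higher, against 0.862% and 1.38% of all genes, with a median of -0.089 and 57 negative values. Promoters of 10 of the 12 called genes were in the RefSeq set. The letters TTTNNCGC, a short form of the E2F site, were searched on both strands of the 300 bases from 250 before to 50 after the start, and were found in 9 of these 10 promoters, in 27 of 53 over all members in 9.72% of all tested genes with a promoter and in 6.9% of all promoters. The following stretches (GRCh38.p14, read 5′ to 3′ on the gene's strand, matches in capitals, overlapping matches merged) are shown as 4 of the called genes whose matches lie before the start.
MCM6, chr2:135876502-135876615 (-): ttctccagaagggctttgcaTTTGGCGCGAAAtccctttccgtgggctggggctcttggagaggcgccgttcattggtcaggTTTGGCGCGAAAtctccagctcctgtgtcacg
MCM3, chr6:52284865-52284936 (-): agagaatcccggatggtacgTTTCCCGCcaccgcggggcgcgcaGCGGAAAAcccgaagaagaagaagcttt
PCNA, chr20:5126654-5126701 (-): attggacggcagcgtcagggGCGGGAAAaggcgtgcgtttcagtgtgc
GINS2, chr16:85688958-85689005 (-): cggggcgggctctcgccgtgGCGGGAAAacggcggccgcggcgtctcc
MCM6 holds 4 matches in 2 such blocks, each read on both strands. MCM3 has a further match nearer the start that is not shown. A match is a run of letters and not a measured binding site.

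The MCM proteins form the ring helicase that opens replication origins. MCM6 had between 49.3 and 60 CPM (median 55) in the early libraries and between 38.3 and 51.9 CPM (median 44.5) in the late libraries, with overlap between the sets and a lower late library in 15 of 16 same-numbered pairs (log2 difference -0.27 ± 0.058, adjusted p = 0.0313). MCM3 gave between 68.8 and 79.6 CPM (median 73.1) in the early libraries and between 58.4 and 70.4 CPM (median 66.2) in the late libraries, lower late in 16 of 16 pairs (log2 difference -0.19 ± 0.033, adjusted p = 0.00889), and MCM4 gave a log2 difference of -0.18 ± 0.035. MCM2 had a log2 difference of -0.25 ± 0.057 (adjusted p = 0.0397). MCM7 and MCM5, the remaining subunits, were at -0.20 ± 0.059 and -0.16 ± 0.065 with adjusted p-values of 0.135 and 0.276, and were not called. PCNA, the sliding clamp, had between 85.6 and 103 CPM (median 98.6) in the early libraries and between 78.2 and 97.7 CPM (median 85.1) in the late libraries (log2 difference -0.16 ± 0.032, adjusted p = 0.0252). The GINS subunits GINS2 and GINS4, the polymerase epsilon subunits POLE and POLE2, and the fork and licensing factors TIMELESS, CLSPN and DTL were lower by log2 values from -0.14 (DTL) to -0.19 (GINS2).

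The list's median step was 0.0051 from 0.5 to 1 h, -0.048 from 1 to 2 h and -0.078 from 2 to 4 h, with 0 members called by edgeR in any of these steps, 13 called lower at 4 h against 1 h and 22 at 4 h against 0.5 h. Of all tested genes, 0.341% were called lower at 4 h against 1 h and 1.22% at 4 h against 0.5 h. Placed against DMSO, the list's median was 0.063 early, -0.028 late and -0.13 at 24 h. Called higher early were 5 members and lower at 24 h 5, beside 1.55% and 3.29% of all tested genes, and 0 were called late. MCM3, for example, stood at 65.1 ± 2.66 CPM in DMSO (SD, n = 4), 74.9 ± 3.2 at 1 h, 62.8 ± 4.87 at 4 h and 61.7 ± 3.51 at 24 h (n = 3). Of 27 measured G1 and cell-cycle control genes, 3 were called lower and 0 higher, beside 0.862% and 1.38% of all genes tested, and the list had 14 positive and 13 negative values with a median of 0.0053. The 3 were E2F1 (log2 difference -0.19 ± 0.045, adjusted p = 0.0464), the cyclin gene CCNE2 (-0.14 ± 0.035) and the phosphatase gene CDC25A (-0.13 ± 0.034). CCNE2 lies antisense to NDUFAF6. Of 65 mitosis genes (median 0.034) 2 were called, both higher, which is not far from the 1.38% of all genes called higher: BUB1, a spindle checkpoint kinase (log2 difference 0.11 ± 0.028, adjusted p = 0.0783), and CENPE, a kinetochore motor (log2 difference 0.15 ± 0.037, adjusted p = 0.0682). The number of called replication genes was 3 without the block, 5 with total counts only, 6 without 0.5 h replicate 2, and between 0 (without replicate 3) and 7 (without replicate 1) with 1 replicate number left out, while the list's median stayed between -0.10 and -0.083 in those leave-outs.

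**Figure D2:**
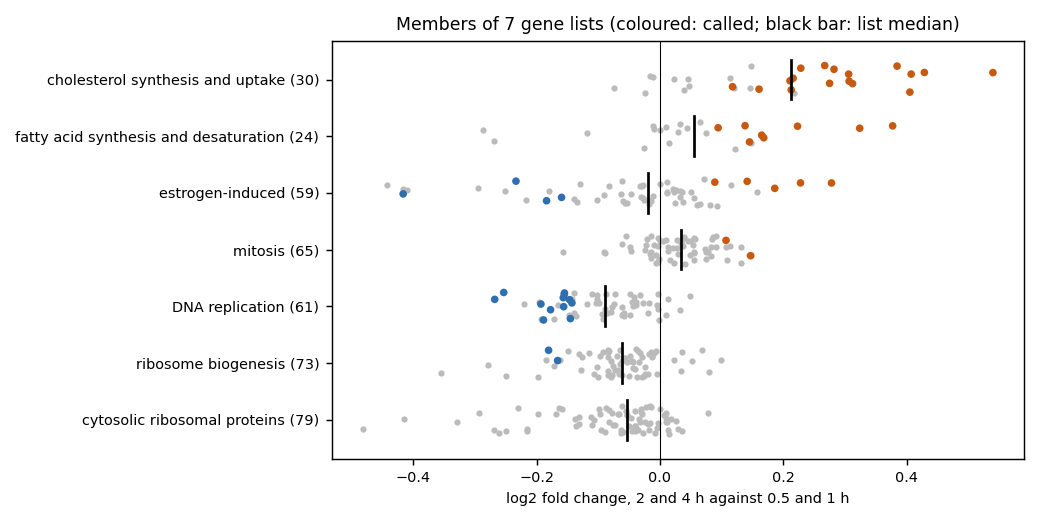
Log2 fold change of the late against the early hours (horizontal axis) for each measured member of 7 gene lists, with the number of members in brackets. Coloured points passed an FDR of 0.1 (orange higher, blue lower), grey points did not, and black bars are list medians; cholesterol members spread to the right, DNA replication members to the left.

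Genes of ribosome production leaned lower as groups with few calls. Of 73 ribosome biogenesis genes, 2 fell, RRP15 (-0.17 ± 0.035) and GNL3 (-0.18 ± 0.045), both nucleolar factors, beside 0.862% of all genes called lower, and the median was -0.061 with 66 negative values. GNL3 holds snoRNA genes and overlaps PBRM1 on the other strand. In the early and late libraries GNL3 lay between 97.7 and 134 CPM in replicate 1 and between 53.3 and 74.6 CPM in the other replicates. Its call was lost without replicate 1, 2 or 3 and without the block. None of 79 cytosolic ribosomal protein genes was called by edgeR (median -0.053, 66 negative). An unadjusted p under 0.05 was found for 17 of them, beside 12.8% of all tested genes, and DESeq2 called 2. Of 20 genes read by polymerase III 0 were called by edgeR or DESeq2, and 2 had an unadjusted p under 0.05, beside the same 12.8%. Their step medians were 0.50 from 0.5 to 1 h, -0.86 from 1 to 2 h and 0.58 from 2 to 4 h.

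Estrogen-induced genes went both ways, with 5 of 59 called higher and 4 lower, beside 1.38% and 0.862% of all genes tested (median -0.020). CA12, a carbonic anhydrase, had between 170.4 and 205 CPM (median 183) in the early libraries and between 198 and 247 CPM (median 220.4) in the late libraries (log2 difference 0.23 ± 0.039, adjusted p = 0.00889), and SCNN1A, an epithelial sodium channel subunit, and ANXA9, an annexin, rose by 0.28 ± 0.052 and 0.19 ± 0.036. All 3 had stood below DMSO early, at log2 values of -0.40, -0.34 and -0.22, and were at -0.17, -0.057 and -0.03 late. AGR2, a disulfide isomerase, and PDZK1, a scaffold protein, rose by 0.089 ± 0.022 and 0.14 ± 0.037. The 4 lower members were the secreted glycoprotein gene OLFM1 (-0.23 ± 0.052), MYBL2, an S-phase transcription factor that is also induced by E2F (-0.18 ± 0.039), the LIM-domain cofactor FHL2 (-0.16 ± 0.041) and the immediate-early gene EGR3 (-0.42 ± 0.12), which had few reads and an antisense neighbour with more.

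Signalling feedback and stress lists had few calls each, to be read against the 1.38% of all tested genes called higher and the 0.862% called lower. Among 32 genes of FoxO and growth-factor feedback, 4 rose and 1 fell (median 0.061). DDIT4, an inhibitor of mTORC1, had between 15.7 and 20.3 CPM (median 19) in the early libraries and between 20.6 and 24.2 CPM (median 22.2) in the late libraries without overlap (log2 difference 0.27 ± 0.049, adjusted p = 0.012), CCNG2, an atypical cyclin induced by FoxO, rose by 0.23 ± 0.049, DEPTOR, a further mTOR inhibitor, by 0.13 ± 0.035, and ERBB2 by 0.11 ± 0.03. ERBB2 was no longer called by DESeq2, without the block or with any 1 replicate number left out. Without replicate 1 its log2 difference was 0.067. IRS2, an adaptor of the insulin receptor, fell (log2 difference -0.35 ± 0.094, adjusted p = 0.0908). At 24 h, in libraries other than the early and late ones but of the same harvests by replicate number, DDIT4 and CCNG2 were above DMSO by 0.42 and 0.37 (adjusted p = 0.00191 and 0.000337). Of 38 hypoxia and glycolysis genes 5 rose, with HK1 and PFKFB4 at 0.17 ± 0.035 and 0.20 ± 0.046, ARNT at 0.12 ± 0.031 and CA12 and DDIT4 shared with the lists above, and 1 fell, the collagen hydroxylase P4HA2 (-0.25 ± 0.047). The TGF-beta list had 3 lower members of 22, LDLRAD4, PMEPA1 and LTBP1 (-0.16 ± 0.031, -0.16 ± 0.041 and -0.12 ± 0.033), and 0 higher. HSPH1 and DNAJB6 were the 2 called heat shock genes of 28, at 0.19 ± 0.042 and 0.14 ± 0.033, and CREB3L2 and SEC24D the 2 of 36 in the unfolded protein response, at 0.19 ± 0.039 and 0.13 ± 0.035. Single calls came from the lists of YAP and TEAD (AJUBA, 0.16 ± 0.036), Notch and Wnt (RNF43, 0.10 ± 0.025), NRF2 (ABCC3, -0.23 ± 0.057), interferon (PLSCR1, -0.20 ± 0.043) and splicing control (SRSF6, -0.11 ± 0.029). AJUBA is overlapped on the same strand by ENSG00000259132, which had more reads. Genes named elsewhere were the single call of the immediate-early (EGR3), nuclear receptor and steroid hormone target (ZBTB16 in both), integrated stress response (DDIT4) and sterol efflux (SREBF1) lists. Of 16 keratin and luminal genes KRT23 and KRT86 fell (-0.23 ± 0.063 and -0.14 ± 0.034), and KRT86 overlaps KRT7 on the same strand. No member of the p53, NF-kB, epithelial to mesenchymal transition, circadian, corepressor (NuRD and CoREST) or histone lists was called in edgeR. Unadjusted p-values under 0.05 were found for 5 of 29, 2 of 20, 6 of 25, 1 of 19, 4 of 28 and 4 of 52 of their genes, beside 12.8% of all tested genes. DESeq2 called 1 gene of the epithelial to mesenchymal list and 0 of the others, beside 598 of 13443 genes.

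Outside the lists, the largest rises included CYBA, a subunit of the NADPH oxidases (between 5.97 and 9.47 CPM (median 8.56) in the early libraries and between 7.76 and 14.1 CPM (median 12.8) in the late libraries; log2 difference 0.54 ± 0.086, adjusted p = 0.0049), whose sets overlapped through 4 h replicate 1. YPEL2 rose from a median of 11.9 to 16.8 CPM (log2 difference 0.45 ± 0.06, adjusted p = 0.0014) and ABCB4, a phospholipid floppase, from 4.78 to 6.35 CPM (log2 difference 0.49 ± 0.13, adjusted p = 0.0783). ZNF692, a zinc-finger protein known as a substrate of the ligase subunit cereblon in the presence of thalidomide-like ligands, of which dTAG-13 holds one, had between 27.2 and 37.3 CPM (median 32) in the early libraries and between 39.2 and 51.1 CPM (median 46.8) in the late libraries without overlap (log2 difference 0.50 ± 0.051, adjusted p = 0.000207). It was above DMSO by 0.66 at 24 h. ZBTB16, a BTB zinc-finger repressor and another such substrate, was the reverse, with between 80.9 and 112 CPM (median 104) in the early libraries and between 64.1 and 99.9 CPM (median 84.8) in the late libraries, lower late in 16 of 16 pairs (log2 difference -0.28 ± 0.047, adjusted p = 0.00834). In the same list of 17 ligase and substrate genes, CUL4B rose by 0.14 ± 0.037 and the other 14 were not called. The part of the ligands themselves in these values was not tested.

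Among the falls with the smallest p, GRIK3, a kainate receptor subunit (chromosome 1, 36795527 to 37034515 on hg38), gave between 109 and 132 CPM (median 124) in the early libraries and between 84.1 and 106 CPM (median 98.7) in the late libraries without overlap (log2 difference -0.35 ± 0.041, adjusted p = 0.000436). SPINK5, a serine protease inhibitor, gave between 137 and 177 CPM (median 153) in the early libraries and between 108 and 147 CPM (median 124) in the late libraries (log2 difference -0.31 ± 0.037, adjusted p = 0.000436). SPINK5 is antisense to FBXO38-DT, which had more reads. Log2 differences were -0.28 ± 0.039 for ZBTB7C and -0.17 ± 0.023 for TTC6, which runs antisense to FOXA1. NNMT, which methylates nicotinamide and lies just downstream of ZBTB16 (chromosome 11, 114257787 to 114313536, against chromosome 11, 114059041 to 114256765), had between 6.07 and 12 CPM (median 10.1) in the early libraries and between 3.48 and 8.45 CPM (median 6.22) in the late libraries (log2 difference -0.58 ± 0.12, adjusted p = 0.0301). Of genes with few reads, CPNE7, CARD10 and PITPNM2 had log2 differences of -0.46, -0.38 and -0.35. By annotated span, 19.8% of the 202 lower genes and 11.7% of the 324 higher genes exceeded 200 kb, beside 9.03% of all tested genes and 10.1% of those with a mean of 200 counts or more, and median spans were 57.3, 63.5, 28.3 and 43.7 kb. Longer genes collect more reads at a given density, and no test was made of the spans.

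The 3 named genes with the largest falls differed strongly between libraries of the same hour. GAB3, an adaptor of cytokine receptors, was at 235 CPM in 0.5 h replicate 2 and at most 10.1 CPM in every other of the 16 libraries (log2 difference -3.81 ± 1.00, adjusted p = 0.0814). Leaving out that library brought the log2 value to -1.18, and leaving out replicate 2 to -0.99, where it was no longer called. POPDC3, a Popeye-domain membrane protein, spanned 526 to 1399 CPM in the 4 libraries of replicate 1 and 12.1 to 140 CPM in the other 12 (log2 difference -1.23 ± 0.34, adjusted p = 0.0935). SNORD36A, a small nucleolar RNA inside RPL7A, was likewise highest in replicate 1 (log2 difference -0.64 ± 0.18, adjusted p = 0.0985).

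**Figure D3:**
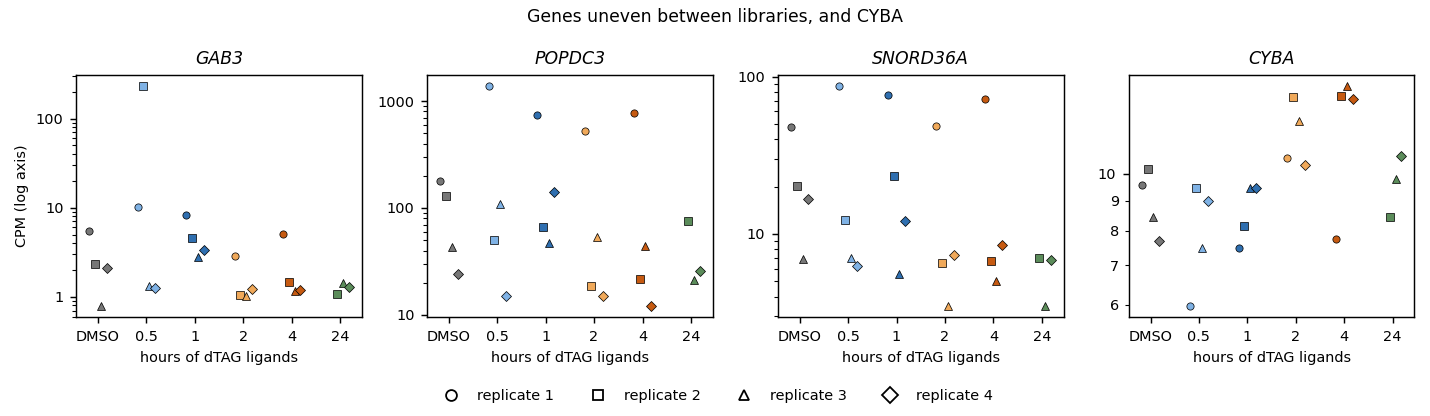
CPM on a log axis for GAB3, POPDC3, SNORD36A and CYBA in each library by hours of dTAG ligands; marker shapes give replicate numbers and no mean is drawn. GAB3 reaches 234.5 CPM in 1 library of 0.5 h, and POPDC3 and SNORD36A are highest in replicate 1 at each hour where it was measured. CYBA is higher at 2 and 4 h within each replicate number, and 4 h replicate 1 lies within the range of the early libraries.

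To read reversals of sign, each phase was set against DMSO in a fit of 20 libraries. Both contrasts use the same DMSO libraries, and each shares its dTAG libraries with the early-to-late contrast, so their values are given side by side. The 324 higher genes had a median of -0.085 against DMSO early, with 20 called higher and 77 lower, and 0.075 late, with 99 called higher and 5 lower. The 202 lower genes had 0.093 early, with 37 called higher and 5 lower, and -0.10 late, with 3 called higher and 56 lower. The background was 1.55% of tested genes called higher and 1.95% lower early, and 1.78% and 1.39% late.

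A change of sign without regard to significance was common: 305 of the 526 genes (58.0%), 178 of the higher and 127 of the lower, lay on opposite sides of DMSO in the 2 phases, beside 27.3% of all tested genes. A called difference between phases favours such a split, and 35 of the 305 were more than 0.1 log2 units from DMSO on both sides. Called on both sides of DMSO were 2 genes, KCNMA1 and DSCAML1, and both went from above to below. KCNMA1, the pore subunit of the BK potassium channel (chromosome 10, 76869601 to 77638369), had between 162 and 172 CPM (median 169) in the early libraries and between 117 and 156 CPM (median 142) in the late libraries, without overlap. Its means were 154 ± 3.69 CPM in DMSO (SD, n = 4), 171 ± 1.98 and 167 ± 4.19 after 0.5 and 1 h, 151 ± 3.31 and 124 ± 7.57 after 2 and 4 h, and 128 ± 5.36 after 24 h (n = 3). The log2 differences were 0.13 early (adjusted p = 0.0322) and -0.17 late (adjusted p = 0.00429), and -0.29 ± 0.055 between the phases (adjusted p = 0.0157). DSCAML1, a homophilic adhesion molecule of neurons (chromosome 11, 117427772 to 117817525), had between 143 and 163 CPM (median 154) in the early libraries and between 120.5 and 135 CPM (median 131) in the late libraries, also without overlap. It was 0.12 above DMSO on the log2 scale early (adjusted p = 0.0458), at -0.13 late (adjusted p = 0.0273) and at 0.016 at 24 h (adjusted p = 0.948). The count of 2 fell to 0 with total counts only and without replicate 2, 3 or 4, and to 1 without replicate 1.

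**Figure D4:**
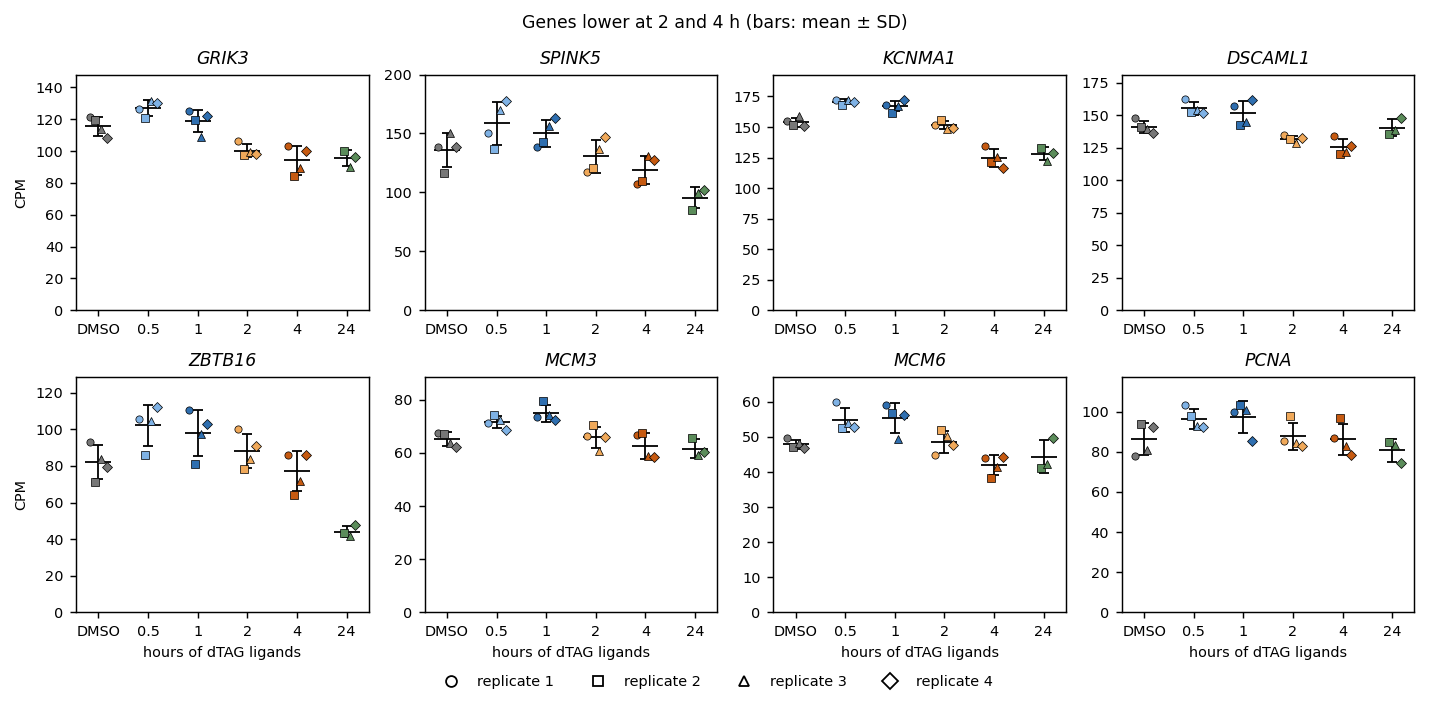
CPM (vertical axis from 0) of 8 genes called lower late, by hours of dTAG ligands, with DMSO at the left; points are libraries, shapes are replicate numbers and bars are the mean ± SD of 4 libraries (3 at 24 h). KCNMA1 and DSCAML1 lie above DMSO at 0.5 and 1 h and below it at 4 h, and ZBTB16 is lowest at 24 h.

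**Figure D5:**
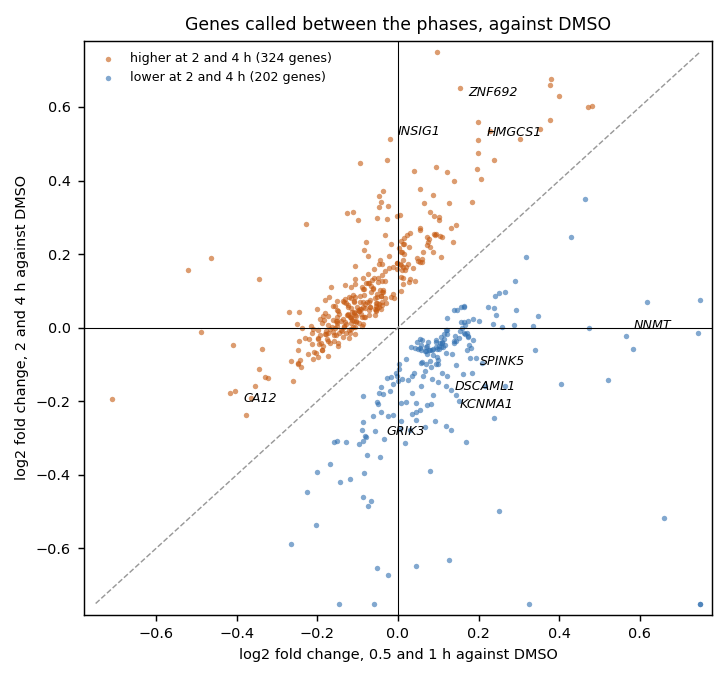
Log2 fold change against DMSO of the 526 called genes at 0.5 and 1 h (horizontal axis) and at 2 and 4 h (vertical axis), orange for the 324 higher late and blue for the 202 lower late, with 7 genes beyond 0.75 drawn at the edge. The dashed line marks equal change, and the upper left and lower right corners of the plane hold the 305 genes whose sign differs between phases.

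Other genes differed from DMSO early and lay nearer to it late. CA12 and SREBF1 started below and rose towards it, ZBTB16 started 0.29 above it and was at 0.0066 late, and NNMT went from 0.57 to -0.023. A further pattern was departure late from a level near DMSO, as for INSIG1 (-0.021 early, 0.51 late) and GRIK3 (0.092 and -0.25). HMGCS1 was above DMSO in both phases, at 0.20 and 0.51.

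The contrast of 24 h with DMSO uses no library of the early-to-late contrast, but its libraries share harvests with the same-numbered early and late ones. Of the 324 higher genes, 210 (64.8%) were above DMSO at 24 h, beside 55.0% of the 11347 tested genes with a positive late-to-early value, and 63 were called higher and 4 lower (background 1.63% and 3.29%). Of the 202 lower genes, 149 (73.8%) were below DMSO, beside 55.7% of 11904, with 39 called lower and 6 higher. ZBTB16 (-0.84), SPINK5 (-0.50), NNMT (-0.61), KCNMA1 (-0.27) and GRIK3 (-0.26) were called lower at 24 h, and ZNF692 (0.66) and YPEL2 (0.38) higher. Set against 2 and 4 h directly, 44 of the higher genes were called lower at 24 h and 15 higher, and 25 of the lower genes were called higher and 16 lower.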

How the data were processed

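PRO-seq was performed on T47D dTAG-TRPS1 Clone 28. The authors deposited raw counts per gene for 23 libraries. Per the labels and methods, these followed adapter trimming (cutadapt 1.8.1), UMI deduplication, removal of rDNA reads, alignment to hg38 (Bowtie2 2.4.4, SAMtools 1.9, from the submitters' processing notes) and interval counting. The annotation release and the use of strand in counting are not given in the sources used here. Of 60605 gene IDs, 60463 matched GENCODE 44, from which symbols and hg38 spans were taken. No column lacked a sample (0).

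Counts of the 16 early and late libraries were fitted with edgeR 4.0.16 (limma 3.58.1, R 4.3.3): filterByExpr with a minimum count of 10 and a total of 15 (23441 genes, 99.2 to 99.4% of counts), TMM scaling, a quasi-likelihood test of late against early with the replicate number as block, and Benjamini-Hochberg adjustment with an FDR threshold of 0.1. Further fits used a model with 4 hours, early and late against DMSO (20 libraries), 24 h against DMSO (7 libraries) and, added after the data were seen, 24 h against late (23 libraries). CPM are deposited counts scaled to TMM-adjusted library sizes, except the marker sums, which were scaled to total counts alone. Pairing takes the replicate numbers of the sample titles as the harvests that the study's methods describe. Deviations of same-numbered libraries correlated at 0.63, 0.16, 0.53 and 0.21 (mean 0.38 over 24 pairs, lowest -0.04), and those of different numbers at -0.10. Common dispersion was 0.0067 with the block and 0.028 without. Scripts were tested on simulated data.

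Named genes are TRPS1, called genes with a mean of at least 50 counts and the same direction in all 4 replicate numbers (the 10 largest rises and falls, and the 5 of smallest p each way), reversals called on both sides of DMSO, and up to 8 called members per gene list by p. Members of lists and others outside this rule were named after their values were seen. Some list members are counted but not reported here by name. The contrast, gene lists and members were chosen with earlier results of these data known. Alternatives were no block, median-of-ratios factors, total counts, no filter, DESeq2 1.42.0, separate hours, and leaving out replicates. Promoters came from RefSeq (GRCh38.p14).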

Additional observations from a re-analysis of the deposited data

Results flagged for a closer look

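In 174 groups of 8 libraries tested for a lowest or highest library far from the others, 15 stood out, and chance flags about 1 in 20 such groups. The library of 4 h replicate 1 accounted for 7 of them: PDZK1 at 288.2 CPM, SCD at 220.2 CPM and LDLRAD4 at 234 CPM were high among the late libraries, FDPS at 49.8 CPM and CUL4B at 36.7 CPM were low, GAB3 at 5.08 CPM was high, and its mitochondrial share was 6.5%. In 0.5 h replicate 1, ACACA was low at 308 CPM, DNAH17 high at 19.2 CPM and PFKFB4 low at 22.0 CPM among the early libraries. KCNMA1 at 162 CPM and DEPTOR at 62.1 CPM were low in 1 h replicate 2, and SREBF1 at 48.4 CPM was low in 1 h replicate 4. Among the late libraries PLSCR1 was high at 30.3 CPM in 2 h replicate 4. GAB3 reached 234.5 CPM in 0.5 h replicate 2.

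KCNMA1 and DSCAML1 were above DMSO early and below it late, each past the threshold. The difference between the phases was itself tested, with log2 values of -0.29 and -0.25 (edgeR, adjusted p = 0.0157 and 0.000279). For KCNMA1 the late value rested mainly on 4 h, with a mean of 124 ± 7.57 CPM (SD). Its 2 h mean of 151 ± 3.31 CPM was near the 154 ± 3.69 CPM of DMSO.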

How the results depend on the processing

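No called gene named here changed direction under an alternative, but calls depended on the block, the filter and the number of libraries. The count of 526 (324 higher, 202 lower) became 149 (101, 48) without the replicate block, 1330 (427, 903) without the low-count filter, 51 (30, 21) with 2 h only, 313 (195, 118) with 4 h only, 48 (23, 25) with 1 h only, 954 (443, 511) without 4 h replicate 1 and 296 (187, 109) without 0.5 h replicate 2. Total counts only gave 95 lower genes. Leaving out a replicate number gave 55 to 386 (39 to 226 higher, 16 to 160 lower).

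For the hour pairs, no replicate block gave 32 (2 h against 0.5 h), 0 (2 h against 1 h), 112 (4 h against 0.5 h), 11 (4 h against 1 h) and 0 (1 h against 0.5 h). Total counts gave 127, 383 and 61 for 2 h and 4 h against 0.5 h and 4 h against 1 h. No filter gave 954, 1176, 820, 593 and 631 for 2 h against 0.5 h, 2 h against 1 h, 4 h against 1 h, 4 h against 2 h and 1 h against 0.5 h. DESeq2 gave 203, 34 and 85 for 2 h against 1 h, 4 h against 2 h and 1 h against 0.5 h. Replicate leave-outs spanned 27 to 232, 0 to 446, 127 to 687, 6 to 685, 0 to 2 and 0 to 330 for 2 h against 0.5 h, 2 h against 1 h, 4 h against 0.5 h, 4 h against 1 h, 4 h against 2 h and 1 h against 0.5 h. Without 4 h replicate 1, 2 h against 0.5 h gave 306, 2 h against 1 h gave 358 and 1 h against 0.5 h gave 38. Without 0.5 h replicate 2, the pairs 2 h against 0.5 h, 4 h against 0.5 h, 4 h against 1 h and 1 h against 0.5 h gave 87, 358, 101 and 8.

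Reversals called on both sides numbered 1 without the block, 0 with total counts, 41 without the filter and 0 to 1 in leave-outs. Those of either kind numbered 89 without the block, 817 without the filter, 39 to 226 in leave-outs, 605 without 4 h replicate 1 and 165 without 0.5 h replicate 2. The share in the same direction at 24 h (68.2%) was 78.2% without the filter and 71.8 to 76.4% in leave-outs.

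Called cholesterol members were 8 with 2 h only, 7 with 1 h only (median 0.17), 18 without 4 h replicate 1 and 9 to 17 in leave-outs. Fatty acid members were 5 without the block, 2 with 2 h only, 5 with 4 h only, 2 with 1 h only and 2 to 8 in leave-outs. Replication members were 3 without the block, 5 with total counts, 0 with 2 h only, 5 with 0.5 h only, 1 with 1 h only, 6 without 0.5 h replicate 2, 13 without 4 h replicate 1 and 0 to 7 in leave-outs, with a median of -0.047 for 2 h only and -0.13 for 4 h only. Of 87 named genes, 44 lost their call without the block and 67 without replicate 3. The cause of these moves was not tested, beyond the fewer libraries in the fits that leave some out. Low-count genes limit the precision.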
